A study of Oryza sativa with 4 samples.

Results

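Aminoacyl-tRNA synthetases and translation factors are the enzymes and soluble proteins with which ribosomes make protein. The rule that defines members reads only words in the annotation of the gene table, and no expression value beyond a minimum of reads: tRNA synthetase or tRNA ligase for the synthetases, and translation initiation factor, translation elongation factor, elongation factor 1, 2, G, Tu, Ts or P, or peptide chain release factor for the factors. The words matched 183 transcripts of 138 loci. Of these, 133 loci had at least 10 reads over the 4 libraries and were kept, 61 synthetases and 72 factors, among 32572 loci of the whole table that met the same minimum. Each locus is represented by the matching transcript with the most reads. The least-read member kept was a tryptophanyl-tRNA synthetase (Os07g0278400-00) with 20 reads. The 5 loci left out had 0 to 6 reads in all, the most being those of initiation factor 3 subunit G (Os02g0788300-00) with 6 reads.

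The libraries come from leaves of 5-week old wild type rice of the ecotype Illmi, grown in soil pots in a greenhouse. The 3 drought libraries were taken after water deficit stress of 1 d, 2 d and 3 d, and the control library from well-watered plants. There was 1 library per condition, with leaves of several plants pooled, so no value has a biological error and no test between conditions was possible. The well-watered leaves were collected before water was withheld, so drought and the passing of days cannot be told apart. A log2 ratio below is the level in a drought library over that in the control, both as RPM (reads per 1000000 gene-mapped reads of the library), and a locus is said to rise or fall where this ratio is at least 1 or at most -1, a 2-fold change. Intervals are exact 95% Clopper-Pearson intervals and cover counting error only. All 3 drought libraries are set against the same control library.

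Each synthetase joins 1 amino acid to its tRNAs. Plants translate in the cytosol, in plastids and in mitochondria, and their nuclear genomes encode synthetases for all of these places, some of them imported into more than 1 organelle. Cytosolic ribosomes start with the eukaryotic initiation factors (eIFs), which find the capped end of an mRNA and its start codon, extend the chain with elongation factors 1 and 2 and stop with eRF1. Organelle ribosomes descend from bacteria and use factors of the bacterial kind: IF-2 and IF-3 for initiation, EF-Tu, EF-Ts, EF-G and EF-P for elongation, and RF1 and RF2 for release. The annotation names a cellular place for few members, so the factors were grouped here by the family their annotation names.

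The libraries held 52626188 to 60322263 gene-mapped reads. Members had a median of 2013 reads in the control and of 1818, 1135 and 697 reads at 1, 2 and 3 d, and none was at 0 in any library. The median width of the counting interval of a log2 ratio at 3 d was 0.26, while the 5 members with under 100 reads in all had intervals of up to 6.71. The drought marker Dip1 (Os02g0669100-01), a dehydrin, had 2832 reads in the control and 4810, 255513 and 237663 reads at 1, 2 and 3 d, and RbcS1 (Os12g0274700-01), a small subunit of Rubisco, had 82272 and then 67264, 10316 and 768 reads. As a check of the tissue, 5 Rubisco small subunit loci summed to 7014 RPM in the control and to 6786, 960 and 79.4 on the 3 drought days, and 18 chlorophyll a/b-binding loci to 18053, 18453, 3779 and 753. Words for pollen and anther gave 11.6, 5.43, 42.1 and 66.8 RPM over 26 loci, and words for root 326, 299, 837 and 698 over 10 loci, in the same order, while seed storage words gave 171 to 237 in the 4 libraries. The part of these in the results below was not tested. In whole leaves, fewer cells of a type and less RNA per cell cannot be told apart.

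At 1 d the machinery was little different from the control. Of the 61 synthetases none rose and 1 fell, against 5.71% of all loci tested that rose and 4.57% that fell. Of the 72 factors none rose and none fell. The median log2 ratio was -0.06 for synthetases and -0.05 for factors, beside 0.03 for all loci. The synthetase that fell was an arginyl-tRNA synthetase (Os01g0158500-01), with 360 reads in the control and 161, 704 and 496 reads at 1, 2 and 3 d. Its log2 ratio was -1.05 at 1 d but 0.88 at 2 d and 0.46 at 3 d.

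At 2 d, 30 synthetases fell and 3 rose, beside 34.9% of all loci that fell and 19.9% that rose. In shares of the 61 synthetases these were 49.2% and 4.92%. Of the 72 factors 26 fell (36.1%) and 6 rose (8.33%).

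At 3 d, 37 synthetases (60.7%) fell and 2 (3.28%) rose, beside 47.4% of all loci that fell and 20.8% that rose. Of the factors 33 (45.8%) fell and 7 (9.72%) rose, a share of falls near that of all loci. The median log2 ratio at 3 d was -1.69 for synthetases and -0.92 for factors, beside -0.86 for all loci.

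The level of this shift depends on the scaling, since 2 of the scalings tried place the median of all loci near 0. With edgeR TMM factors 5 synthetases rose and 23 fell at 2 d, and with DESeq2 median of ratios factors 6 rose and 22 fell. Of the translation factors 8 rose under both, while 16 and 15 fell. Over all loci 24.9% rose and 27.7% fell at 2 d with TMM, and 25.6% and 27.0% with the median of ratios. At 3 d, with TMM 9 synthetases rose and 30 fell, and with the median of ratios 9 rose and 24 fell. Of the factors 16 rose and 24 fell with TMM, and 16 rose and 21 fell with the median of ratios. Over all loci 30.5% rose and 34.8% fell at 3 d with TMM, and 32.7% rose and 32.6% fell with the median of ratios. TMM raised every log2 ratio by 0.33 at 2 d and 0.72 at 3 d, and the median of ratios by 0.36 and 0.86. A log2 ratio between -0.86 and 0 at 3 d is therefore at or above 0 with the median of ratios. These shifts are smaller than the limit for a fall or rise, so none can change sign under either. Distances from the median of all loci do not move with the scaling: synthetases lay 0.53 below it at 2 d and 0.83 below it at 3 d, and factors 0.23 and 0.06 below it.

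The factors divided by family. Of the 16 bacterial-type factors 15 fell at 2 d and 15 at 3 d (93.8%), and none rose on any day. Their median log2 ratio was -1.91 at 2 d and -2.93 at 3 d. Of the 47 eukaryotic factors 7 fell and 5 rose at 2 d, and 13 (27.7%) fell and 6 (12.8%) rose at 3 d, with medians of -0.40 and -0.64. Of all loci 34.9% fell and 19.9% rose at 2 d, and 47.4% fell and 20.8% rose at 3 d. With TMM, 7 eukaryotic factors fell and 15 rose at 3 d, while 12 bacterial-type factors fell and none rose. Over all loci 34.8% fell and 30.5% rose at 3 d with TMM, so the eukaryotic factors rose about as often as all loci. The remaining 9 factors, named by a domain or a relation to a factor, were kept apart, and 5 of them fell and 1 rose at 3 d. Some loci of the bacterial-type and eukaryotic groups are also named by a domain. That of Os08g0399600-01 is named for both EF-Ts and EF1B, and this locus was counted as bacterial-type. Loci with the EFTu/EF1A or EFG/EF2 domain, also named for factors of both kinds, were kept apart.

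**Figure D1:**
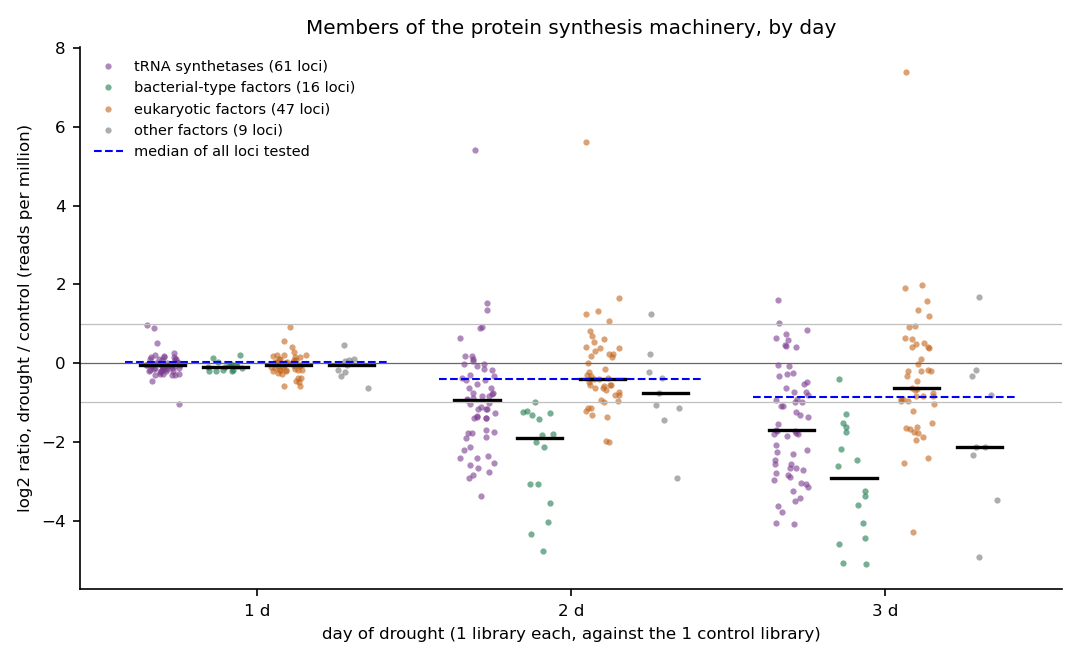
Log2 ratio of each of the 133 members (points) at 1, 2 and 3 d of drought against the control, with the median of each group as a black bar and the median of all loci as a dashed line. At 3 d the bacterial-type factors have a median of -2.93 and the synthetases of -1.69, below the -0.86 of all loci, while the eukaryotic factors have a median of -0.64.

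For synthetases and bacterial-type factors the change came mainly between 1 d and 2 d. Between these libraries the median step was -0.98 for synthetases, -1.88 for bacterial-type factors and -0.28 for eukaryotic factors, beside -0.41 for all loci, and 15 of 16 bacterial-type factors (93.8%) and 28 of 61 synthetases (45.9%) lost 2-fold or more in that step alone, beside 35.9% of all loci. Between 2 d and 3 d the median steps were -0.51, -0.35 and -0.19, beside -0.45 for all loci. In RPM, 43 of 61 synthetases were lower at 2 d than in the control and lower again at 3 d. Summed over all synthetases, the level was 3456 RPM in the control, 3267 after 1 d, 1675 after 2 d and 1349 after 3 d. For the 16 bacterial-type factors the sums were 1159, 1082, 289 and 230 in the same order, and for the 47 eukaryotic factors 3140, 3148, 3379 and 3904. The higher eukaryotic sum at 3 d rests largely on eRF1 locus Os05g0373900-01 and eIF5A-2 locus Os03g0758800-01. The former had 1.96 RPM in the control and 331 at 3 d, and the latter 159 and 592. Of the 47 eukaryotic factors 31 had a log2 ratio below 0 at 3 d, a share near that of all loci (20192 of 30920).

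Among the synthetases, 54 loci name the amino acid they charge, and all 20 amino acids are covered by 1 to 5 loci. At 3 d a synthetase for 19 of the 20 amino acids fell, with arginine the exception. For 6 amino acids (histidine, leucine, lysine, methionine, proline and threonine) every locus fell, and for 13 at least 1 locus fell while another did not, where 47.4% of all loci fell. Methionine transcript Os01g0821800-02 (-1.69) held 13.5% of the reads of its locus, whose other transcripts are annotated by a nucleic acid-binding domain. With TMM a synthetase fell for 18 amino acids, and every locus for 4 (histidine, lysine, proline and threonine). With the median of ratios these counts were 17 and 2 (histidine and proline). The 10 synthetases that fell 8-fold or more charge alanine, asparagine, cysteine, glutamine, glutamate, glycine, isoleucine, leucine, threonine and valine, 1 locus for each.

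Alanyl-tRNA synthetase Os06g0245800-01 had the highest level per length of all synthetases in the control, 54.5 RPM per kb of gene sequence. It had 20142 reads in the control and 16905, 4920 and 1201 reads at 1, 2 and 3 d, a log2 ratio of -4.07 at 3 d (interval -4.16 to -3.99). Another alanine locus, Os10g0182000-01, annotated as a mitochondrial precursor, had 15124, 13210, 7804 and 7978 reads in the same order, a log2 ratio of -1.04 at 2 d and -0.93 at 3 d. Locus Os01g0120400-01 had 523, 483, 1422 and 941 reads; it rose at 2 d (1.35) and stood at 0.84 at 3 d. The 3 loci thus differed by 4.92 on the log2 scale at 3 d.

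Cysteinyl-tRNA synthetase Os09g0556500-01 had 3132 reads in the control and 2536, 624 and 185 reads at 1, 2 and 3 d, a log2 ratio of -4.09 at 3 d (interval -4.31 to -3.87). The other cysteine locus, Os03g0143300-01, started at a like number of reads, 3230, and had 3139, 2568 and 1734 reads on the drought days (-0.90 at 3 d). Glycyl-tRNA synthetases show the same form: Os08g0538000-01 had 5995 reads in the control and 5274, 846 and 528 reads on the 3 days (-3.51), and Os04g0398300-01 had 6064, 5171, 3506 and 3462 reads (-0.81). Both glycine loci carry the words mitochondrial precursor in their annotation. For asparagine, Os07g0485400-01 had 4162, 3695, 612 and 473 reads (-3.14), and Os01g0372700-01, annotated as cytoplasmic, had 3457, 3560, 3512 and 2230 reads (-0.64).

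The glutamine loci lay as far apart. Os05g0182800-01 had 1814 reads in the control and 1473, 303 and 169 reads at 1, 2 and 3 d, a log2 ratio of -3.43 at 3 d. Os01g0185200-03, the other glutaminyl-tRNA synthetase, had 11897, 10957, 11167 and 11457 reads, and its log2 ratio at 3 d was -0.06 (interval -0.10 to -0.02). It had 32.5 RPM per kb at 3 d and 33.9 in the control, and at 3 d it held 98.2% of the summed level per length of the glutamine pair. Relative to all loci, which had a median of -0.86, this locus was therefore higher at 3 d.

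**Figure D2:**
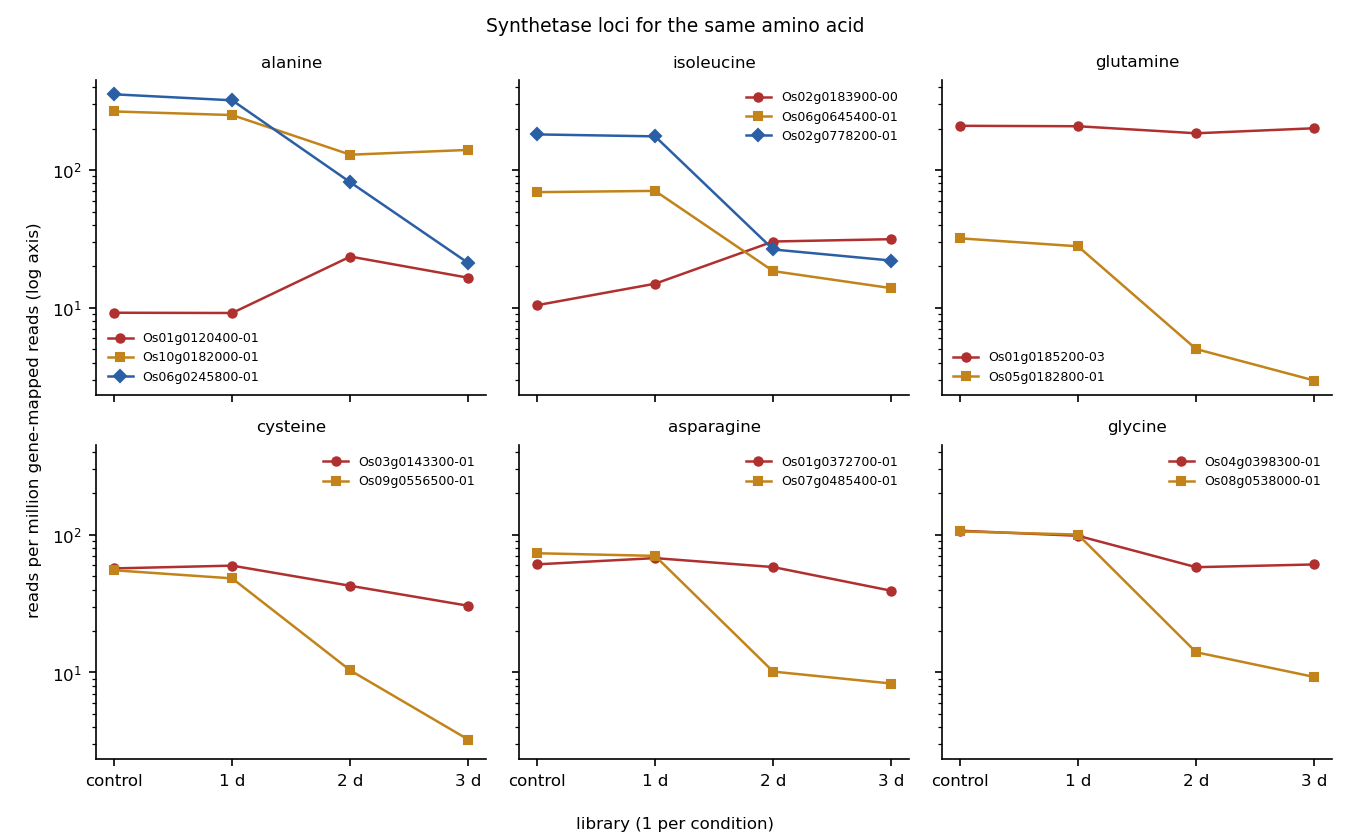
RPM (log axis) of the synthetase loci for 6 amino acids in the control and at 1, 2 and 3 d, 1 library each. In every panel at least 1 locus fell 8-fold or more by 3 d, as alanine locus Os06g0245800-01 did (-4.07), beside a locus that was within 2-fold of the control or rose.

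The synthetases that rose were few. An isoleucyl-tRNA synthetase-like locus, Os02g0183900-00, had 593 reads in the control and 788, 1829 and 1794 reads at 1, 2 and 3 d, a log2 ratio of 1.54 at 2 d and 1.59 at 3 d (interval 1.46 to 1.73). Another locus with the same annotation, Os06g0645400-01, fell, with 3925, 3719, 1115 and 791 reads and a log2 ratio of -2.32 at 3 d, and the remaining isoleucine locus, Os02g0778200-01, had 10305, 9251, 1601 and 1255 reads (-3.04). The rising locus held 31.8% of the summed level per length of the 3 at 3 d, against 2.14% in the control. Its gene sequence is 21638 bases long, introns included, the longest of all members.

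Valyl-tRNA synthetase Os03g0335600-01 had 1702 reads in the control and 1301, 1953 and 3438 reads on the 3 days, a log2 ratio of 1.01 at 3 d (interval 0.93 to 1.09), which is at the limit for a rise. Another locus with the same annotation, Os10g0506200-00, had 723, 546, 74 and 279 reads; its lowest level was at 2 d (-3.38), and at 3 d its log2 ratio was -1.38. The other valine loci were Os07g0163500-01 (-3.26 at 3 d), Os03g0694900-01 (-2.08) and Os03g0111700-01, similar to Arabidopsis TWN2 (-0.75). A phenylalanyl-tRNA synthetase, Os09g0479300-01, had 2 reads in the control and 2, 90 and 3 reads on the 3 days, so that its log2 ratio of 5.40 at 2 d rests on 2 control reads and on 1 library. The 2 phenylalanine loci with more reads, Os12g0533700-01 and Os10g0400800-01, fell at 3 d (-2.79 and -1.54).

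Both arginyl-tRNA synthetases stayed within 2-fold at 3 d, with Os05g0163000-01 at 2840, 2169, 2699 and 3821 reads (0.42). Of the aspartate loci, Os02g0686400-01 had 1606, 1432, 1946 and 2155 reads (0.42), and Os02g0139600-01, with 138, 145, 102 and 42 reads, fell (-1.72, interval -2.26 to -1.21). Summed over its loci, the level of a synthetase was lower at 3 d than in the control for 18 of 20 amino acids, arginine (0.43) and aspartate (0.33) being above 0. The sums were 2-fold or more lower for 15 amino acids, 11 with TMM and 8 with the median of ratios, and the median sum was -1.78. Of these sums of RPM the lowest was for proline (-2.57), which has 1 locus (Os07g0165000-01, with 4127, 3596, 1682 and 697 reads), while glutamine was at -0.24. In sums of level per length threonine was lowest (-2.83).

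**Figure D3:**
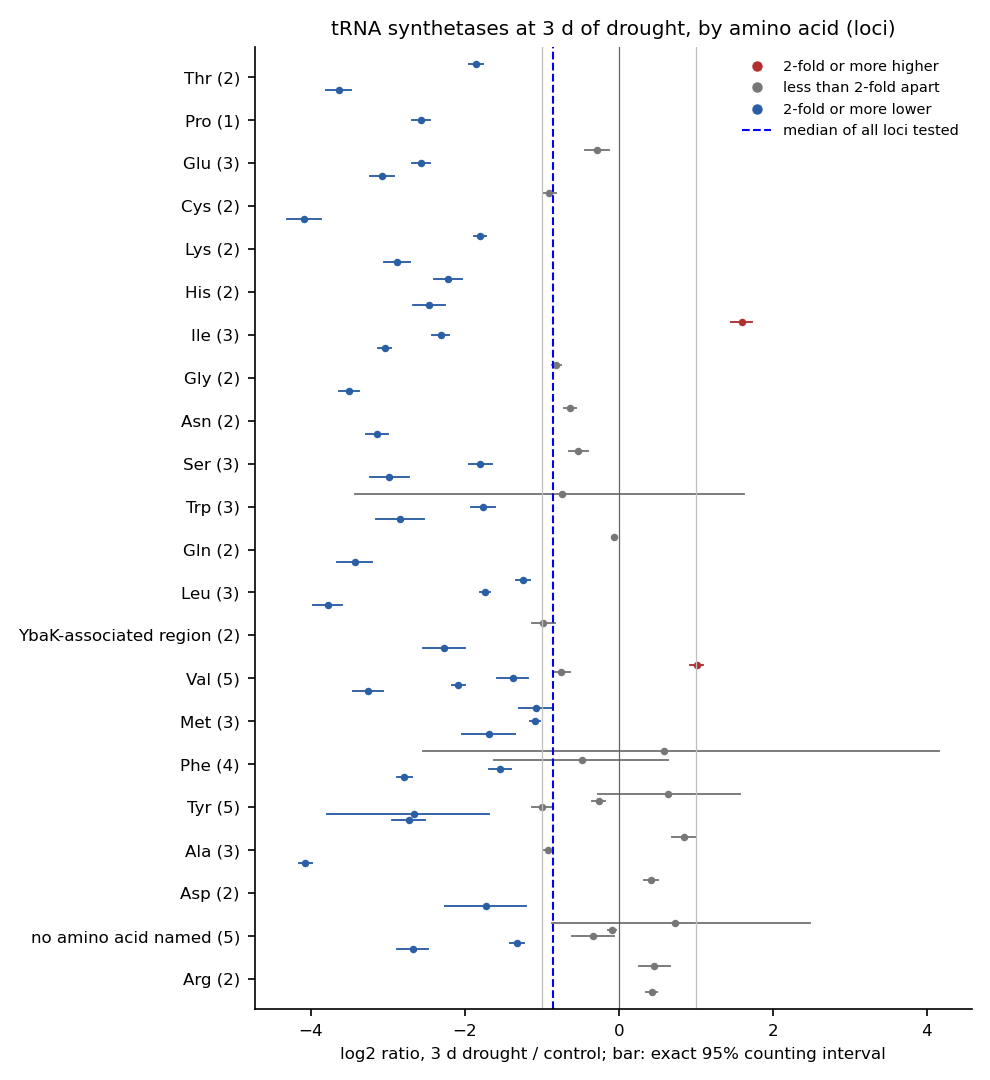
Log2 ratio of each synthetase at 3 d against the control (points) with its exact 95% counting interval (bars), by the amino acid named in its annotation. Loci of 1 amino acid lie up to 4.92 apart, for alanine, and 2 loci, for isoleucine and valine, are to the right of the 2-fold line.

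Of the 5 synthetases that name no amino acid, 2 fell at 3 d. The one with the most reads, Os07g0193600-01, had 6896 reads in the control and 5586, 8249 and 6513 on the 3 days (-0.09). Both loci with a YbaK/synthetase-associated region, a domain that in bacteria removes wrongly attached amino acids, were lower at 3 d, with Os02g0662200-01 at -2.27 and Os02g0767700-01 at -0.98, just short of a 2-fold fall.

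Among the bacterial-type factors, both loci grouped as elongation factor Ts, which recycles EF-Tu, fell more than 16-fold. Os12g0541500-02, annotated as the chloroplast polyprotein of EF-Ts, had 11420 reads in the control and 9225, 595 and 341 reads at 1, 2 and 3 d, a log2 ratio of -4.35 at 2 d and -5.07 at 3 d (interval -5.23 to -4.91). The other 4 transcripts of this locus, which share reads with it, lay between -5.48 and -4.80 at 3 d. Os08g0399600-01, with an EF-Ts/EF1B domain, had 479, 510, 31 and 22 reads (-4.45). EF-Tu, which brings the charged tRNA to the ribosome, fell less: Os02g0595700-01, the chloroplast EF-Tu, had 4136, 3572, 1853 and 680 reads (-2.61), and Os03g0851100-02 had 349, 283, 44 and 37 reads (-3.24). At locus Os03g0851100 another transcript, named EF-TuM, had more reads (915, 824, 176 and 100) and a log2 ratio of -3.20.

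Elongation factor P helps bacterial ribosomes past runs of proline. Of its 3 loci Os11g0116400-01 had 726 reads in the control and 597, 28 and 21 reads on the 3 days, a log2 ratio of -5.12 at 3 d (interval -5.82 to -4.49), the lowest of all members. Os12g0115900-01 had nearly the same number in the control, 751 reads, and then 611, 68 and 62 reads (-3.60). Os03g0806400-01 had 268, 255, 122 and 49 reads (-2.46). EF-G, which moves the ribosome along the mRNA, fell less than the other bacterial-type elongation factors. With the median of ratios all its loci were short of 2-fold at 3 d (-0.88, -0.76 and -0.44). With TMM Os03g0565500-01 (-0.58) and Os04g0538166-00 (-0.90) were. Os04g0538100-01 had 5384, 4926, 1607 and 1614 reads (-1.74), and Os03g0565500-01, annotated as mitochondrial, had 6965, 6129, 2759 and 2845 reads (-1.30). Both were no lower at 3 d than at 2 d. The remaining EF-G locus, Os04g0538166-00, has the locus number next to Os04g0538100 and a sequence of 423 bases, and its values (2013, 1818, 537 and 659 reads, -1.62) may hold reads of the same gene.

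Initiation factor IF-3 (Os02g0794400-01) had 6673 reads in the control and 6011, 843 and 279 reads on the 3 days, 24.0 times lower at 3 d (log2 ratio -4.58, interval -4.76 to -4.41). IF-2 (Os05g0575300-01), which carries the initiator tRNA, had the most reads of the bacterial-type factors, 19967, and then 17142, 6038 and 4439 reads (-2.17). The release factors of the bacterial kind did not move together: RF2 locus Os05g0375600-00 had 350, 353, 85 and 21 reads (-4.06), RF1 locus Os05g0277300-01 had 1994, 1702, 883 and 194 reads (-3.37), and RF1 family locus Os11g0657100-01 had 3454, 3121, 1465 and 1204 reads (-1.53). The other RF2 locus, Os03g0305700-01, with 838, 691, 450 and 640 reads, was the 1 bacterial-type factor that did not fall, with -0.99 at 2 d and -0.39 at 3 d.

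**Figure D4:**
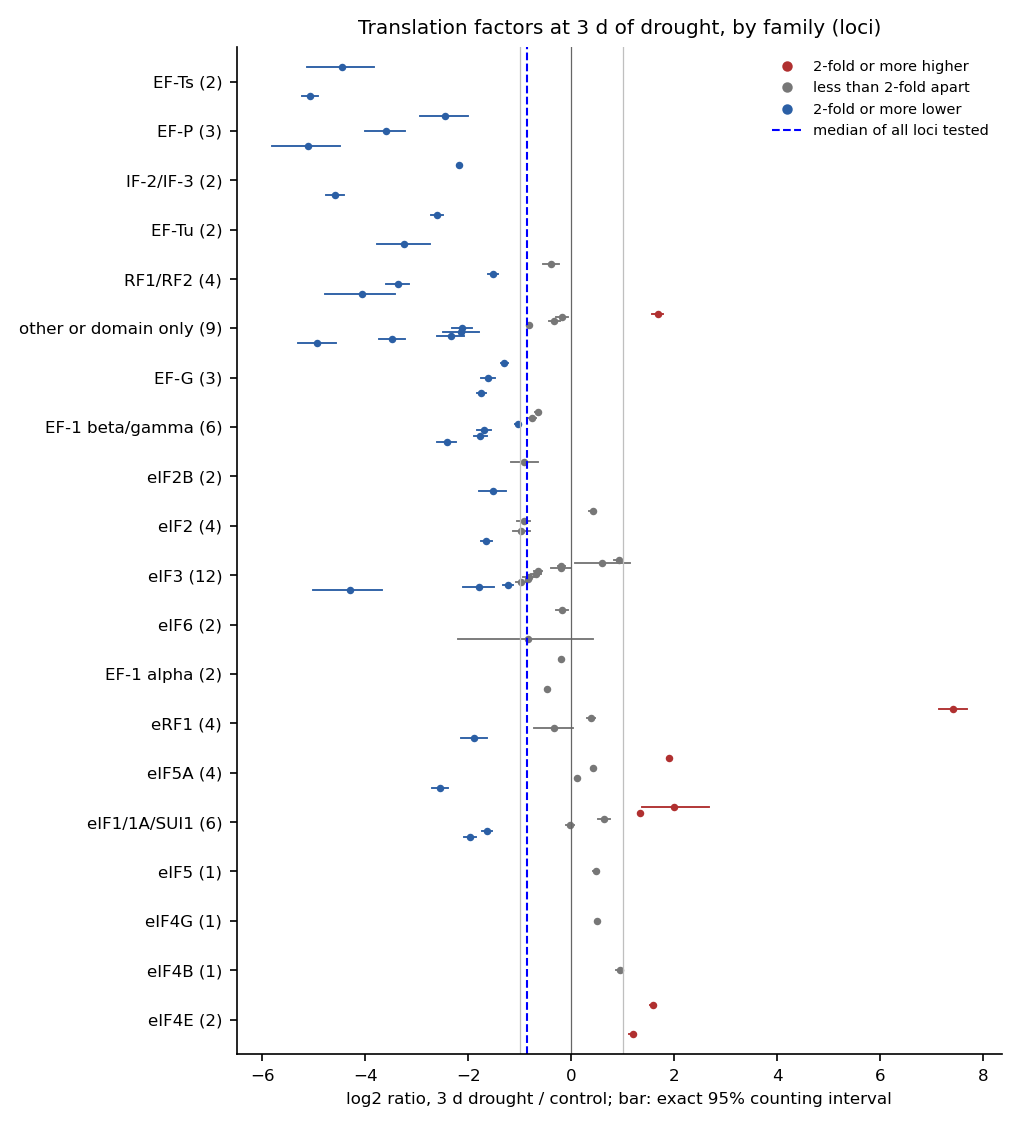
Log2 ratio of each translation factor at 3 d against the control (points) with its exact 95% counting interval (bars), by family. EF-Ts, EF-P, EF-Tu, EF-G, IF-2 and IF-3 lie wholly to the left of the 2-fold line, both eIF4E loci to its right, and eRF1 locus Os05g0373900-01 stands at 7.40.

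The largest rise of any member was in the release factor of the cytosol. eRF1 recognises the stop codon and frees the finished protein. Its locus Os05g0373900-01 had 111 reads in the control and 195, 5764 and 18850 reads at 1, 2 and 3 d. The log2 ratios were 0.92, 5.61 and 7.40 (interval at 3 d 7.13 to 7.69), a 169-fold higher level at 3 d. Neighbouring locus numbers showed no such rise: Os05g0373700-01 had 5510, 4681, 4796 and 2778 reads and Os05g0374000-01 had 1019, 1049, 326 and 215 reads.

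The other eRF1 loci went elsewhere. Os07g0587400-01, eRF1-3, had 2306 reads in the control and 1885, 3029 and 3026 reads on the 3 days (0.39 at 3 d), Os01g0939500-00, eRF1-2, had 135, 97, 56 and 107 reads (-0.34), and Os03g0702800-02, which has the same annotation as the rising locus, had 631, 430, 353 and 171 reads and fell (-1.89). At 3 d Os05g0373900-01 held 85.5% of the summed level per length of the 4 loci and Os07g0587400-01 held 12.3%, against 3.39% and 62.9% in the control. The summed level of the family was 389 RPM at 3 d, against 56.1 RPM in the control. A locus named only by the class I release factor domain, Os03g0249200-01, had 1330, 1094, 1078 and 1176 reads (-0.18). It was counted with neither the bacterial-type nor the eukaryotic factors.

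eIF5A, the eukaryotic relative of EF-P, again had members apart. Os03g0758800-01, eIF5A-2, had 9020 reads in the control and 8798, 30310 and 33711 reads on the 3 days, a log2 ratio of 1.66 at 2 d and 1.90 at 3 d (interval 1.86 to 1.93). Os12g0507200-01, with the same annotation, had 16020, 16539, 13448 and 17288 reads (0.11), and Os07g0597000-01 had 20895, 21660, 18995 and 28032 reads (0.42). Os07g0112800-01, eIF5A-4, had 2321, 2166, 625 and 400 reads and fell (-2.54). The rising locus held 48.0% of the summed level per length of the 4 at 3 d, against 22.0% in the control.

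Both loci of eIF4E, which binds the cap of the mRNA, rose. eIF4E-1 (Os01g0970400-01) had 2889 reads in the control and 2540, 7246 and 8714 reads on the 3 days, log2 ratios of 1.24 at 2 d and 1.59 at 3 d. The type 3 cap-binding protein (Os03g0262400-01) had 2386, 1955, 4451 and 5474 reads (0.81 and 1.19). The scaffold eIF4G (Os07g0555200-01) had 8137, 6716, 12489 and 11563 reads (0.50 at 3 d), and eIF4B (Os04g0480100-01), a helper of the eIF4A helicase, had 2479, 1774, 3091 and 4772 reads (0.94), both short of 2-fold. With TMM they were at 1.22 and 1.66, and with the median of ratios at 1.36 and 1.80, past 2-fold. All 4 loci were slightly below the control at 1 d, between -0.37 and -0.08.

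**Figure D5:**
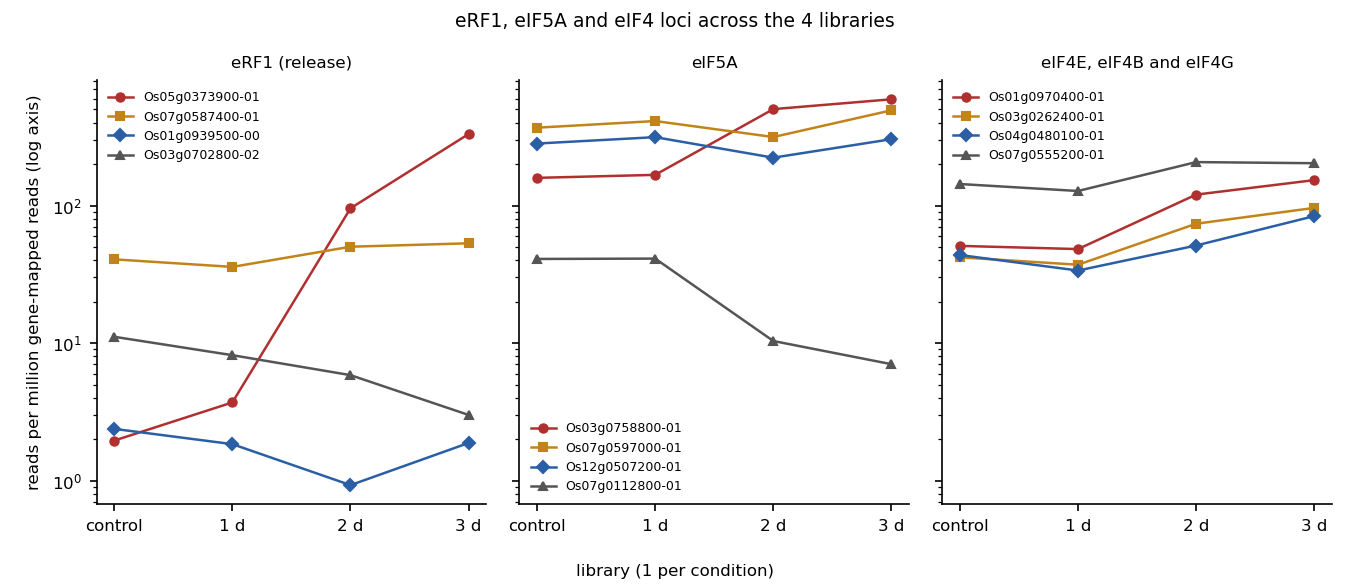
RPM (log axis) of the eRF1, eIF5A and eIF4 loci in the control and at 1, 2 and 3 d, 1 library each. eRF1 locus Os05g0373900-01 goes above the other 3 eRF1 loci at 2 d, and eIF5A-2 locus Os03g0758800-01 is the highest of the eIF5A loci at 2 d and 3 d.

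The factors that help select the start codon were split. eIF1A locus Os06g0342200-01 had the highest level per length of all members, 432 RPM per kb at 3 d and 171 in the control, with 7245, 7753, 19190 and 18360 reads and a log2 ratio of 1.34 at 3 d. The other eIF1A locus, Os02g0300700-01, had 975, 1044, 1348 and 1529 reads (0.64). Of the 4 loci with a SUI1 domain, the fold of eIF1, Os04g0627900-01 rose on few reads (26, 24, 58 and 104, log2 ratio 2.00, interval 1.36 to 2.68), Os02g0557600-01 and Os01g0195500-01 fell (-1.97 and -1.64), and Os01g0794500-00 was at -0.02.

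eIF2, which brings the initiator tRNA to the small subunit, had 1 falling locus of 4. This was a beta subunit, Os07g0681000-01, with 2645, 2328, 1209 and 848 reads (-1.65), while the other beta subunit, Os03g0333300-01, had 2971, 2515, 3548 and 3979 reads (0.42). The alpha subunit Os03g0296400-01 was at -0.92 and the gamma subunit Os12g0607100-02 at -0.97. The latter had 929 reads in the control. Transcript Os12g0607100-01 of the same locus, annotated as similar to a heterochromatin protein, had 2533 and was at -0.95. Of the 2 loci for the delta subunit of eIF2B, which reloads eIF2 with GTP, Os03g0645200-01 fell at 3 d (469, 293, 335 and 164 reads, -1.52) and Os12g0617100-01 was at -0.91. eIF5 (Os09g0326900-01), which makes eIF2 hydrolyse its GTP, was at 0.48, and the 2 eIF6 loci at -0.18 and -0.83.

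Of 12 loci of eIF3, the large complex that holds the small subunit, 3 fell and none rose at 3 d. The other eIF3 loci lay between -0.97 and 0.92. Os11g0606300-01, named subunit 2, had 413 reads in the control and 509, 109 and 21 reads on the 3 days and was the lowest eukaryotic factor (-4.30, interval -5.01 to -3.67). Subunit f (Os05g0104800-01) fell to -1.22, and subunits c (Os07g0124500-01), h (Os04g0376500-01) and a (Os01g0120800-01) were at -0.83, -0.68 and -0.19. The remaining locus that fell, Os01g0229100-01 (-1.79), is named a subunit 6-interacting protein. It held 17.6% of the reads of its locus, whose most-read transcript is annotated by a protein-tyrosine phosphatase domain. A locus with an eIF3 subunit domain, Os02g0122300-01, had 1479, 922, 2512 and 2812 reads and stood at 0.92.

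Eukaryotic elongation factor 1 had 4 falling loci of 8 at 3 d, and the other 4 lay between -0.75 and -0.21. With the median of ratios 1 of the 8 fell, beside 32.6% of all loci, and 4 were above 0. EF-1 alpha, which brings charged tRNAs to cytosolic ribosomes, had 2 matching loci. Os03g0177400-02 had 15873 reads in the control and 15085, 12712 and 13781 reads on the 3 days (-0.21), and Os03g0177900-02 had 9004, 8379, 6532 and 6542 reads (-0.47). These loci lie in a run of close copies with Os03g0177500 and Os03g0178000, whose reads can be exchanged among them, so the value of any 1 copy is uncertain. The most-read transcripts of these copies, which the words of the rule do not match, were at -0.10 (Os03g0177500-01) and 0.22 (Os03g0178000-01). The subunits that recycle EF-1 alpha ranged further: a beta subunit, Os03g0406200-01, had 1542, 1446, 659 and 290 reads (-2.42), gamma subunit Os06g0571400-01 was at -1.76 and gamma subunit Os02g0220600-02 at -1.69, while its neighbour by number, gamma subunit Os02g0220500-01, had 5992, 5266, 5744 and 3828 reads (-0.65).

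Of the 9 factors kept apart, Os09g0515500-01, with an initiation factor 2 related domain, had 1943 reads in the control and 1928, 272 and 64 reads on the 3 days (-4.93). Os05g0592600-01, with the same domain, had 9270, 7300, 8399 and 5270 reads (-0.82). A locus with an EFG/EF2 C-terminal domain, Os03g0650700-01, was at -3.47. Os01g0268800-01, with a ubiquitin-associated domain and an EF1B N-terminal domain, rose, with 878, 858, 2233 and 2813 reads (1.68). Os12g0503200-01, similar to IF-2P, had 1671, 1006, 2071 and 1332 reads and the lowest log2 ratio of all factors at 1 d, -0.62.

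Other genes of protein synthesis were counted by words of their annotation, beside 47.4% of all loci that fell and 20.8% that rose at 3 d. Of 68 loci for organelle ribosomal proteins 62 fell and none rose at 3 d, with a median log2 ratio of -2.88, near the -2.93 of the bacterial-type factors. Of 163 loci for cytosolic ribosomal proteins with reads in both libraries 123 fell and 2 rose, with a median of -1.40, lower than the -0.64 of the eukaryotic factors. Both ribosome recycling factors fell (Os04g0490400-01 at -2.65 and Os07g0570700-01 at -2.97). Of 28 tRNA modification loci 26 fell (median -2.97). Of 6 loci matched by the words for poly(A)-binding protein 2 rose and 1 fell. The one that fell, Os03g0353400-01 (-1.83), is annotated as a protein that interacts with poly(A)-binding protein. Os06g0219600-01, annotated as poly(A)-binding protein II-like, had 2083 reads in the control and 2024, 5440 and 7101 reads on the 3 days (1.76). All 5 nascent polypeptide-associated complex loci were below 0, and 4 fell.

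A further 25 loci carry initiation or elongation factor names in other words, such as eIF4A, eIF4B, EF-1 alpha and EF-2. This list was made after the annotation was seen. At 3 d 8 of them (32.0%) fell and 3 (12.0%) rose, with a median of -0.23. Both shares were below the 47.4% and 20.8% of all loci. Of 5 loci named for the eIF4A helicase, 4 were within 2-fold (Os06g0701100-02 at -0.23, Os02g0146600-01 at -0.05, and the eIF4A-3 loci Os01g0639100-01 at -0.42 and Os03g0566800-01 at -0.43). The remaining one, Os07g0606500-02, named only by the eIF4A family, had 1589 reads in the control and 1582, 219 and 62 reads on the 3 days and was the lowest of the list (-4.68). The 2 EF-2 loci with the most reads (Os02g0519900-01 at -0.14 and Os04g0118400-01 at 0.04) were near the control. A locus with the domain shared by eIF4G, eIF5 and eIF2B epsilon, Os06g0698674-01, had 4661 reads in the control and 4556, 15071 and 21352 reads on the 3 days, a log2 ratio of 2.19, and an eIF4B-like locus, Os02g0595800-01, had 587, 449, 1426 and 1793 reads (1.61). Another eIF4B family locus, Os02g0439700-01, had 3135, 2590, 2735 and 1229 reads and fell (-1.36).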

How the data were processed

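Strand-specific libraries of leaf RNA were sequenced by the authors, and their reads were mapped to the gene sequences of the rice build IRGSP-1.0. The deposited table gives counts, whole numbers of reads per transcript, with the gene sequence length and annotation. Whether strand was used in counting is not given in the sources used here, so antisense or overlapping genes may share reads, and reads of a locus are divided among its transcripts. Deposited normalised values and log2 ratios hold the authors' comparisons and were not used.

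Counts were divided by the gene-mapped total of the library. Loci with at least 10 reads were kept, 1 transcript each (Python 3.11.15, pandas 2.3.3, scipy 1.17.1). A call needed a log2 ratio of 1 or -1 and reads in both libraries. There were no replicates, hence no tests. Ratios and intervals were tested on simulated data. The words use no expression value, but members, families and lists were chosen with earlier results of these data known. Most genes described in full had a mean of at least 100 reads. Among the exceptions were Os04g0627900-01, Os01g0939500-00 and Os09g0479300-01. Those described were among the most-read, the highest or lowest at each day, and any that rose. All members of eIF4, eIF5A, EF-1 alpha, the bacterial-type elongation factors and the release factors were added, and pairs with 1 annotation that moved apart. Others named beside them were chosen after their values were seen. Alternatives were no scaling, edgeR 4.0.16 TMM and DESeq2 1.42.0 factors, 1 read added, minimums of 1 and 100 reads, a counting interval that excludes no change, and reads summed per locus. Sequences are not reported here.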

Additional observations from a re-analysis of the deposited data

How the results depend on the processing

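The scaling was the choice that moved most counts. With edgeR TMM, 5 synthetases rose at 2 d and 9 at 3 d, 16 factors fell at 2 d, and 16 factors rose at 3 d. With DESeq2 median of ratios 6 synthetases rose at 2 d and 9 at 3 d, 24 synthetases fell at 3 d, 15 factors fell at 2 d, and at 3 d 16 factors rose and 21 fell. With a minimum of 1 read, 1 factor fell at 1 d, against 0 with 10 reads. At 3 d the distance of the synthetase median from that of all loci was -0.87 to -0.68 over the alternatives run, and that of the factor median -0.08 to 0.02, on both sides of 0. Of 84 called values of the named genes 13 were under 2-fold with TMM, 16 with the median of ratios and 1 without scaling. None was under 2-fold with the others, while 11 further values passed 2-fold with TMM and 11 with the median of ratios. No called value changed sign, which the scalings could not bring about, since they move a log2 ratio by at most 0.86. Falls at 3 d that were under 2-fold with both scalings were those of Os01g0195500-01, Os03g0565500-01, Os03g0645200-01, Os04g0538166-00, Os10g0506200-00 and Os11g0657100-01. Those under it with the median of ratios only were of Os01g0120300-00, Os02g0139600-01 and Os04g0538100-01. Leaving out matches that name transcription elongation or a tRNA ligase other than a synthetase removed no locus. A further pair of alternatives was chosen after seeing the data: taking the most-read transcript whatever its annotation changed no count at 2 d or 3 d, and without loci that name no amino acid or numbered factor 34 synthetases and 28 factors fell at 3 d. No paired analysis was possible because each condition has 1 library, and none could be left out. Depth limits the 5 members with under 100 reads.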
